A study of Mus musculus with 6 samples.

Results

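ATF4 is the transcription factor at the end of the integrated stress response. The 42 genes described here were listed around its program. They are Pck2, regulators and stress-response genes, enzymes of amino acid and one-carbon synthesis, and cytosolic aminoacyl-tRNA synthetases. The synthetases were taken as a family that holds known ATF4 targets, and a place in the list does not make a gene a target. The 42 genes were chosen by symbol, with earlier results of these data known. All 42 were found among the 52997 gene symbols of the count table. They comprise Pck2 itself, 10 regulators and stress-response genes, 9 amino acid synthesis genes, 4 one-carbon genes and 18 cytosolic synthetases. A total of 34 passed the filter on low counts and were tested, and 8 did not (Atf5, Cebpb, Chac1, Vldlr, Asns, Pycr1, Gpt2 and Cth).

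The study compared RNA of CD4+ T cells from pooled lymph nodes of infant mice aged 10 days (titled Young) and adult mice aged 7 weeks. Both groups were Foxp3-GFP mice on the C57BL/6 background, in which a green fluorescent protein reports Foxp3, the transcription factor of regulatory T cells. The titles call the cells Tconv and the series calls them naive. Each group had 3 libraries, each from 1000 sorted cells of a different mouse, and the sources used here do not give the markers of the sort.

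In the integrated stress response, kinases that sense missing amino acids, unfolded protein, viral RNA or low haem phosphorylate the initiation factor eIF2. General translation then falls while translation of the Atf4 mRNA rises through its upstream open reading frames, so Atf4 protein can change with little change in its mRNA. ATF4 binds with C/EBP partners to response elements in genes for amino acid synthesis, uptake and tRNA charging. Aminoacyl-tRNA synthetases join each amino acid to its tRNA, and T cells draw on them and on serine and one-carbon metabolism when they grow and divide.

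The libraries held 3421253 to 4887371 counts. In adult replicate 2 as many as 36373 genes were detected, where the remaining 5 libraries detected 17992 to 21840, and its density over genes below the filter was 1.85 counts per kb against 0.186 to 0.349. Member calls and medians that turn on it are given with and without it. The 6 markers of CD4+ T cells were all detected, with a summed level of 5398 to 6171 CPM (counts per 1000000 counts of the library) in adult and 5727 to 5785 CPM in infant libraries. Markers of dividing cells summed to 9.94 to 32.4 CPM in adult and 75.4 to 162.5 CPM in infant libraries, and 4 of the 6 tested rose. In such bulk samples, fewer cells of a type and less RNA per cell cannot be told apart.

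Pck2 fell 8.51-fold in infant cells, Psat1 and Shmt1 rose 1.67-fold and 1.77-fold, and none of the 18 cytosolic synthetases passed the test. These 3 genes were 8.82% of the 34 tested members, where 3.64% of all 11681 tested genes passed (edgeR quasi-likelihood test, adjusted p under 0.05). The members were chosen with earlier results of these data known, so their shares are only a description. By direction, 1.52% of all tested genes rose and 2.11% fell. The members' median log2 fold change, infant over adult, was 0.01, against −0.0017 over all tested genes, with 16 members below 0 and 18 above. The infant and adult values did not overlap for 10 of the 34 (29.4%), against 22.8% of all tested genes. Of the 10, 6 were higher in infant cells (Psat1, Shmt1, Mthfd1l, Dars, Gars and Qars) and 4 were lower (Pck2, Atf4, Aars and Sars). For 28 of the 34 members the 95% interval of the fold change lay within 2-fold in either direction.

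**Figure D1:**
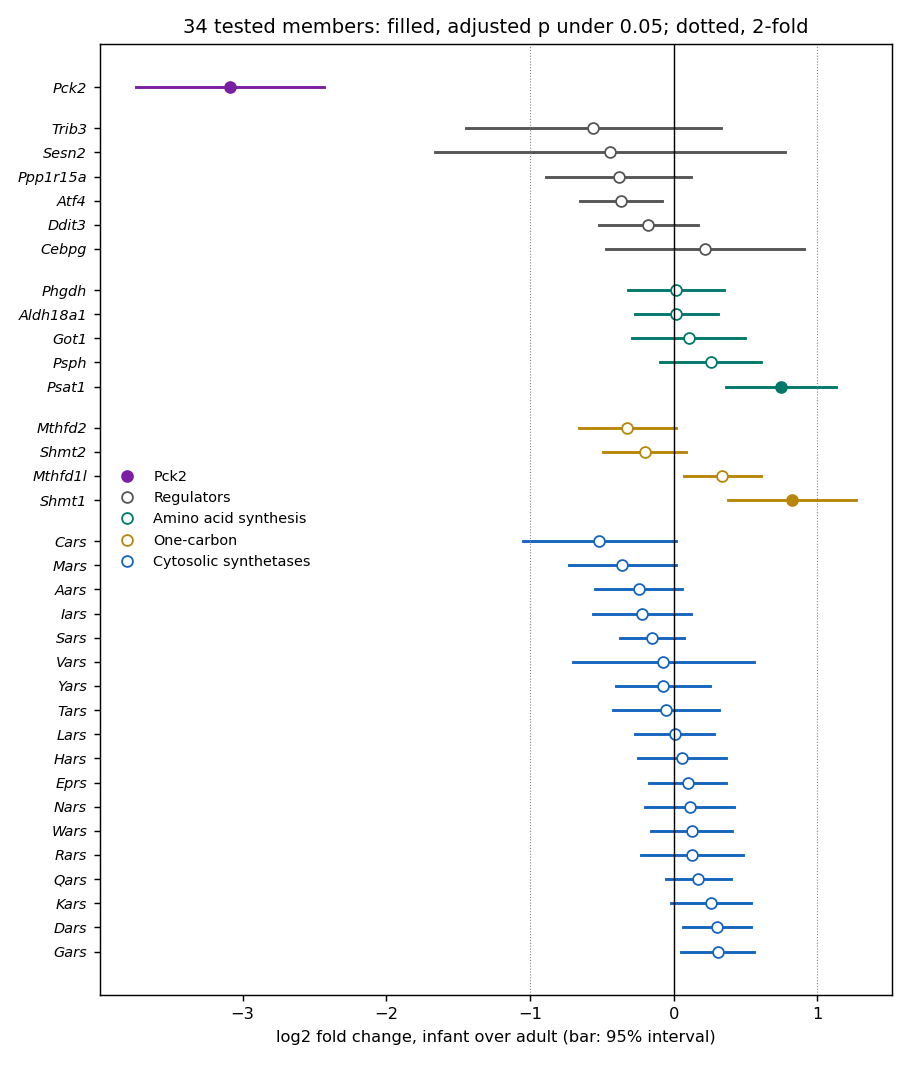
Log2 fold change, infant over adult, of the 34 tested members with 95% intervals as bars, grouped by role; filled circles passed the test. Pck2 lies at −3.09, apart from all others, while the 18 synthetases lie between −0.52 and 0.31.

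Pck2 encodes the mitochondrial phosphoenolpyruvate carboxykinase, which turns oxaloacetate into phosphoenolpyruvate inside mitochondria and feeds serine and glycerol synthesis from citrate-cycle carbon. It lies at chr14:55540266-55551242 on the plus strand of mm10. Its level was 43.2, 46.6 and 25 CPM in adult replicates 1 to 3 and 3.98, 5.56 and 3.86 CPM in infant replicates 1 to 3. Every infant library was below every adult library, and the lowest adult library, replicate 3, was still well above the highest infant library. The means were 38.2 ± 11.6 CPM (SD, n = 3) in adult and 4.47 ± 0.949 CPM (SD, n = 3) in infant cells. The log2 fold change was −3.09 ± 0.31 (SE) with a 95% interval of −3.74 to −2.43 and an adjusted p of 5.18e-05 (edgeR).

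The infant values rest on 19, 23 and 16 counts and the adult values on 178, 164 and 117. Pck2 ranked 15th by p among the 11681 tested genes. It passed in all 15 alternative fits, and its log2 fold change ran from −3.33 to −2.92 as each library was left out. Pck1, the cytosolic form of the same enzyme, had 0, 13 and 0 counts in adult and 0, 0 and 2 in infant libraries and was not tested. Among the other cell types whose markers were summed, the sums of 2 moved with age. Natural killer markers summed to 13.9 to 27.3 CPM in adult and 7.12 to 9.92 CPM in infant libraries. Most of this was Klrd1, which fell, with Ncr1 at 0 in all libraries. Gzma was at 0 to 0.568 CPM in adult and 0.209 to 1.21 CPM in infant libraries. Myeloid markers summed to 7.48 to 16.2 CPM in adult and 22.4 to 27.8 CPM in infant libraries. Of these, Fcgr3 rose (edgeR adjusted p = 0.0461), while Itgam (0.257) and Cd68 (0.359) did not pass. Lyz2 and Csf1r were not tested. Their means were lower in infant cells (0.0805 and 0.290 CPM) than in adult cells (0.513 and 0.730 CPM). The part of either cell type in the fall of Pck2 was not tested. No other tested member had an interval that reached as low as that of Pck2: the lowest bound among them was −1.66, for Sesn2.

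**Figure D2:**
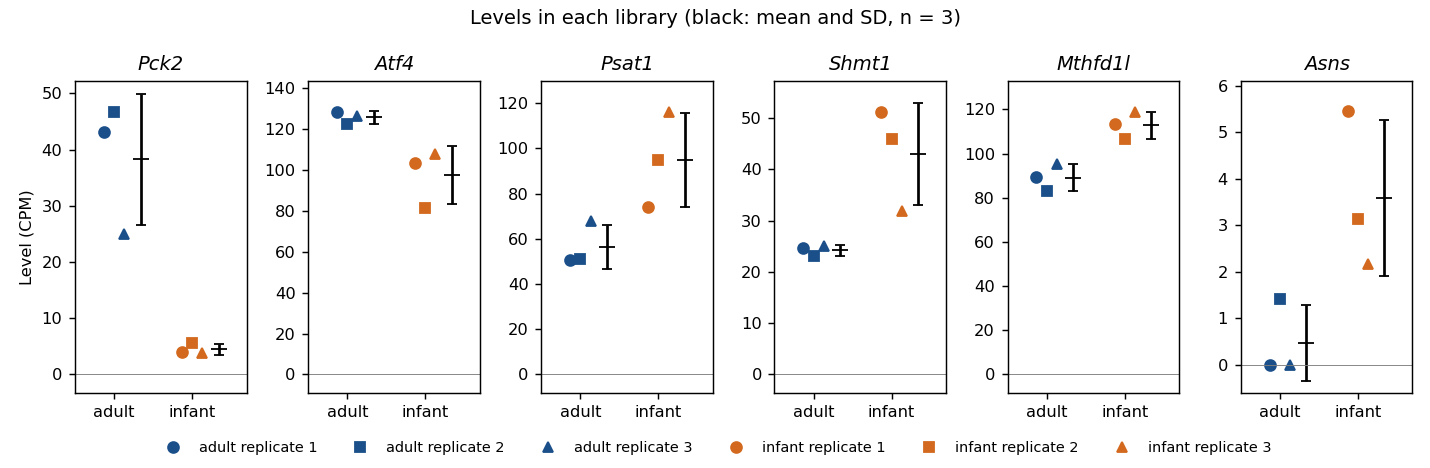
Level in CPM of Pck2, Atf4, Psat1, Shmt1, Mthfd1l and Asns in each of the 6 libraries (adult blue, infant orange; black, mean and SD, n = 3), each panel with its own linear axis. Infant Pck2 lies at 3.86 to 5.56 CPM against 25 to 46.6 in adult cells, and Psat1, Shmt1 and Mthfd1l lie higher in all 3 infant libraries.

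The promoter of Pck2 is shown because it is the member that changed most and carries the letters of a C/EBP-ATF response element, the kind of site that ATF4 binds. The 250 bases before its start, from RefSeq on build GRCm38.p6 (chr14:55540016-55540265, plus strand), hold a single match to TGATGNAA, searched on both strands, so that a match on the other strand reads TTNCATCA. The match starts 103 bases before the start of the gene and is in capitals.
Pck2: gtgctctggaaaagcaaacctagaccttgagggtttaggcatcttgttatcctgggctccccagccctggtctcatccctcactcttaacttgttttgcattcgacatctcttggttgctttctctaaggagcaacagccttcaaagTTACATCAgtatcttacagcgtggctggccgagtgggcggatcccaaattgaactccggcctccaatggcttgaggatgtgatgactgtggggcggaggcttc

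Other members carried the same letters, and none of those tested passed. The windows below hold 11 bases on each side of the match and are shown so that the element of Pck2 can be set beside others. These are of a member with few counts (Asns) and of tested members that did not pass (Trib3, Got1, Gars, Iars, Tars and Yars). Windows are not shown for Aars, which was tested and did not pass. Its matches begin at −112 and 10 from the start. Those of the untested Chac1, Pycr1 and Vldlr are not shown either. Each window shown is written on the strand of its gene, with the match in capitals. Before the start, the matches begin at −23 in Asns, −102 in Got1, −30 in Gars and −15 in Tars. After the start, they begin at 15 in Trib3, 8 in Iars and 4 in Yars.
Asns (chr6:7693214-7693243, minus strand): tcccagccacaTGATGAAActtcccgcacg
Trib3 (chr2:152344028-152344057, minus strand): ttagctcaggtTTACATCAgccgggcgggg
Got1 (chr19:43524689-43524718, minus strand): cattgcattggTTGCATCAtacaagcctcc
Gars (chr6:55037960-55037989, plus strand): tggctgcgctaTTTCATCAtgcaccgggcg
Iars (chr13:49682126-49682155, plus strand): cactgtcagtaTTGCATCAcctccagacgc
Tars (chr15:11399655-11399684, minus strand): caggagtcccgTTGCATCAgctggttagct
Yars (chr4:129189895-129189924, plus strand): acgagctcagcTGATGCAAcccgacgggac

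In Pck2 and Trib3 the 8 letters are identical but lie at unlike places, −103 from the start in Pck2 and 15 in Trib3. The 95% interval of the log2 fold change was −3.74 to −2.43 for Pck2 and −1.45 to 0.33 for Trib3. Trib3, a pseudokinase that restrains ATF4, had 6.79, 11.9 and 14.1 CPM in adult and 11.7, 5.32 and 5.07 CPM in infant libraries. The letters occurred in 12 of the 34 members with a RefSeq promoter of 300 bases (35.3%), 250 before and 50 after the start. These 34 include untested members and are not the same set as the 34 tested members. Among tested members with such a promoter the share was 8 of 27 (29.6%), against 217 of 8324 tested genes (2.61%). It was 1304 of 32851 promoters in all (3.97%). Most members other than the synthetases were chosen as ATF4 targets, and synthetases are a family that holds known ATF4 targets. The members' shares are therefore only a description. By role, the letters were in 5 of 11 synthetases, 3 of 8 amino acid synthesis genes, 3 of 10 regulators and stress-response genes and none of the 4 one-carbon genes. Among tested members, the 8 with the letters had log2 fold changes of −3.09 to 0.31 (median −0.15, 6 of them below 0, Pck2 included). The 19 without the letters had −0.45 to 0.83 (median 0.02, 8 of them below 0). A match is only a string of letters, and binding of ATF4 was not measured. Cars, Cth, Hars, Lars, Nars, Rars, Vars and Wars were not searched.

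Among the regulators and stress-response genes, Atf4 itself (chr15:80255184-80257541, plus strand) came nearest to the threshold. Its level was 128, 122 and 127 CPM in adult and 103, 81.3 and 108 CPM in infant libraries. All infant values were below all adult values, and infant replicate 2 was the lowest. The log2 fold change was −0.37 ± 0.13 (SE, 95% interval −0.65 to −0.08), with an adjusted p of 0.161 (edgeR), and it did not pass in any of the 15 alternatives. The level of Atf4 mRNA does not give the level of ATF4 protein, which was not measured.

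Of the 10 genes in this role group, 6 were tested, none passed, 5 had a log2 fold change below 0, and the median was −0.38. Ddit3, which encodes the pro-apoptotic factor CHOP, had 50.7, 47.7 and 48.7 CPM in adult and 42.5, 39.4 and 48.1 CPM in infant libraries, with 1 infant library inside the adult range. Its log2 fold change was −0.18 ± 0.16 (SE, edgeR adjusted p = 0.630). Ddit3 shares 10.9% of its exon bases with other gene models, Mars among them, and the protocol does not mark strand. Ppp1r15a, the stress-induced subunit of the phosphatase that reverses eIF2 phosphorylation, had a log2 fold change of −0.38 ± 0.24 (SE). Trib3 had −0.56 ± 0.42 and Sesn2, a leucine sensor that restrains mTORC1, had −0.45 ± 0.57. Cebpg, a partner of ATF4 on DNA, was the only tested gene of this group above 0. Its level was 12.8, 17.6 and 7.91 CPM in adult and 17.8, 12.1 and 14.2 CPM in infant libraries (log2 fold change 0.22 ± 0.32), and the groups overlapped. The 95% intervals of all tested genes of this group except Atf4 crossed 0, and those of Trib3 and Sesn2 also held a 2-fold decrease.

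In amino acid synthesis, Psat1 rose and the other 4 tested genes did not pass. Psat1 (chr19:15904678-15947337, minus strand) encodes phosphoserine aminotransferase, the middle step from 3-phosphoglycerate to serine. Its level was 50.7, 51.1 and 67.7 CPM in adult and 74.1, 94.8 and 116 CPM in infant libraries. The lowest infant library was above the highest adult library. The means were 56.5 ± 9.72 and 95 ± 20.9 CPM (SD, n = 3 each), and the log2 fold change was 0.74 ± 0.18 (SE, 95% interval 0.36 to 1.13) with an adjusted p of 0.0328 (edgeR). The call was lost without adult replicate 1 (adjusted p = 0.160, edgeR), adult replicate 2 (0.0751), infant replicate 2 (0.154) or infant replicate 3 (0.179).

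The enzymes before and after it in the serine pathway had smaller differences. Phgdh, the first step, had 78.1, 60.8 and 77.8 CPM in adult and 67.4, 66.8 and 85.3 CPM in infant libraries, and its log2 fold change was 0.02 ± 0.16 (SE, 95% interval −0.32 to 0.35). Psph, the last step, had 56.0, 65.1 and 63.7 CPM in adult and 61.3, 90.9 and 68.6 CPM in infant libraries, a log2 fold change of 0.26 ± 0.16. Phgdh and Psph overlapped between the ages, and infant replicate 2 was the highest library for Psph. The ratio of Psat1 to Phgdh counts was 0.649, 0.841 and 0.871 in adult and 1.10, 1.42 and 1.36 in infant libraries, with no overlap. The ratios of Psph to Phgdh (0.717, 1.07 and 0.819 in adult, 0.910, 1.36 and 0.805 in infant libraries) and of Psph to Psat1 (1.11, 1.27 and 0.940 in adult, 0.828, 0.959 and 0.592 in infant libraries) overlapped. Together with the 2 one-carbon ratios below, 5 ratios were tested, all chosen after the values were seen. Ratios to Pck2 were also computed, were not tested and are not part of the adjustment. Exact two-sided permutation tests gave p = 0.1, the smallest that 3 against 3 allows, for Psat1 to Phgdh (0.167 adjusted over the 5), p = 0.6 for Psph to Phgdh and p = 0.2 for Psph to Psat1.

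Aldh18a1, which starts proline synthesis from glutamate and had the highest mean CPM of this role group (per kb of exon, Phgdh was higher), was at 104, 88.4 and 112 CPM in adult and 113, 92.4 and 103 CPM in infant libraries. Got1, the cytosolic aspartate aminotransferase, had a log2 fold change of 0.10 ± 0.18 (SE). The median of the 5 tested genes was 0.10, and all 5 lay above 0. Without adult replicate 2 the median was −0.0076, and Phgdh, Aldh18a1 and Got1 then lay below 0. The rise of Psat1 went with markers of dividing cells, at a summed 75.4 to 162.5 CPM in infant and 9.94 to 32.4 CPM in adult libraries, and their part in it was not tested.

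Pck2 and Psat1 both lead toward serine and moved in opposite directions. The ratio of Psat1 to Pck2 levels was 1.17, 1.10 and 2.71 in adult and 18.6, 17.0 and 30.0 in infant libraries. Atf4 was at 2.97, 2.63 and 5.07 times the level of Pck2 in adult libraries and at 26.0, 14.6 and 27.9 times in infant libraries. Both ratios, and those of Shmt2 and Mars to Pck2, were higher in every infant library than in any adult library. The 8.51-fold fall of Pck2, their shared denominator, already gives this separation. It therefore says nothing further about Psat1 or Atf4. Per kb of exon, Pck2 was at 4.9 CPM in adult and 0.572 CPM in infant cells, and Psat1 was at 13.3 and 22.3 CPM.

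Among the 4 one-carbon genes, all of which were tested, Shmt1 rose. The gene (chr11:60788104-60811718, minus strand) encodes the cytosolic serine hydroxymethyltransferase, which passes a carbon of serine to folate. Its level was 24.7, 23.0 and 25 CPM in adult and 51.1, 46.0 and 31.9 CPM in infant libraries. The adult libraries were close together, while infant replicate 3 lay nearer to them than the other infant libraries did. The means were 24.2 ± 1.08 and 43.0 ± 9.94 CPM (SD, n = 3 each), and the log2 fold change was 0.83 ± 0.21 (SE, 95% interval 0.38 to 1.27), with an adjusted p of 0.0431 (edgeR). Of the 6 fits that each left out a library, only that without infant replicate 3 kept the call (adjusted p = 0.0283, edgeR), and the other 5 gave 0.0842 to 0.181. It was lost with limma-voom too (adjusted p = 0.0596). With the replicate number as a block, edgeR gave an adjusted p of 0.0849.

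The mitochondrial form, Shmt2, had 138, 111 and 148 CPM in adult and 110, 109 and 127 CPM in infant libraries. Its log2 fold change was −0.20 ± 0.14 (SE, 95% interval −0.49 to 0.09). The ratio of Shmt1 to Shmt2 counts was 0.179, 0.208 and 0.169 in adult and 0.463, 0.423 and 0.252 in infant libraries, with no overlap. Its exact two-sided permutation p was 0.1 (0.167 adjusted over the 5 ratios). Mthfd2, which oxidises the folate-bound carbon, had 126, 95.7 and 132 CPM in adult and 77.5, 108 and 98.1 CPM in infant libraries, a log2 fold change of −0.32 ± 0.16 (edgeR adjusted p = 0.321). Mthfd1l, which releases that carbon as formate, had 89.2, 83.0 and 95.1 CPM in adult and 113, 106 and 119 CPM in infant libraries (0.34 ± 0.12, edgeR adjusted p = 0.166). The groups overlapped for Mthfd2 and did not for Mthfd1l. The ratio of Mthfd1l to Mthfd2 counts was 0.708, 0.866 and 0.719 in adult and 1.46, 0.982 and 1.21 in infant libraries (exact two-sided permutation p = 0.1, 0.167 adjusted over the 5 ratios). The part of dividing cells, whose summed markers were higher in every infant library than in any adult library, was not tested for Shmt1 either. Top2a, the dividing marker of highest CPM, was at 44.4, 39.2 and 69.3 CPM in infant replicates 1 to 3.

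The 18 cytosolic synthetases were all tested and none passed, by edgeR or by any alternative that used all 6 libraries. The lowest adjusted p was 0.173 (edgeR), and 2 genes, Dars and Gars, had an unadjusted p under 0.05. The median log2 fold change was 0.03, with 8 genes below 0 and 10 above and a range of −0.52 to 0.31. The 95% interval excluded a 2-fold change for 17 of the 18, all except Cars. Infant and adult values did not overlap for 5 of the 18 (27.8%), 3 of them higher and 2 lower in infant cells, a share near the 22.8% of all tested genes. Summed over the 18 genes, the level was 2672, 2276 and 2806 CPM in adult and 2566, 2533 and 2837 CPM in infant libraries, and the ages overlapped.

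Dars, the aspartyl-tRNA synthetase, had 194, 169 and 205 CPM in adult and 221, 236 and 244 CPM in infant libraries. Its log2 fold change was 0.30 ± 0.11 (SE, 95% interval 0.06 to 0.54). Gars, the glycyl-tRNA synthetase, had 151, 141 and 170 CPM in adult and 177, 183 and 211 CPM in infant libraries, a log2 fold change of 0.31 ± 0.12. Both genes were higher in every infant library than in any adult library, and so was Qars, for glutamine (0.17 ± 0.11). Sars, for serine, had the highest CPM of the synthetases, with 267, 289 and 311 in adult and 257, 257 and 265 in infant libraries. Aars, for alanine, had 73.9, 81.5 and 77.1 CPM in adult and 57.4, 71.1 and 67.9 CPM in infant libraries. Sars and Aars were lower in every infant library, with log2 fold changes of −0.15 ± 0.10 and −0.25 ± 0.14.

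Cars, for cysteine, had 99.4, 46.0 and 116 CPM in adult and 54.0, 60.5 and 68.8 CPM in infant libraries, so that adult replicate 2 was the lowest of all 6. Its log2 fold change was −0.52 ± 0.25 (SE, edgeR adjusted p = 0.306) with all libraries and −0.82 (adjusted p = 0.00823) without adult replicate 2. Mars, for methionine, had 149, 122 and 173 CPM in adult and 106, 93.1 and 149 CPM in infant libraries (−0.36 ± 0.17, edgeR adjusted p = 0.314). With adult replicate 2 and infant replicate 3 both left out, Mars was at −0.70 (edgeR adjusted p = 0.0160) and Cars at −0.91 (0.00852). Vars, for valine, had the largest SE of the synthetases (0.29), with 187, 128 and 74.4 CPM in adult and 75.4, 119 and 175 CPM in infant libraries. No direction can be read for Vars, whose log2 fold change ran from −0.42 to 0.30 as libraries were left out.

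**Figure D3:**
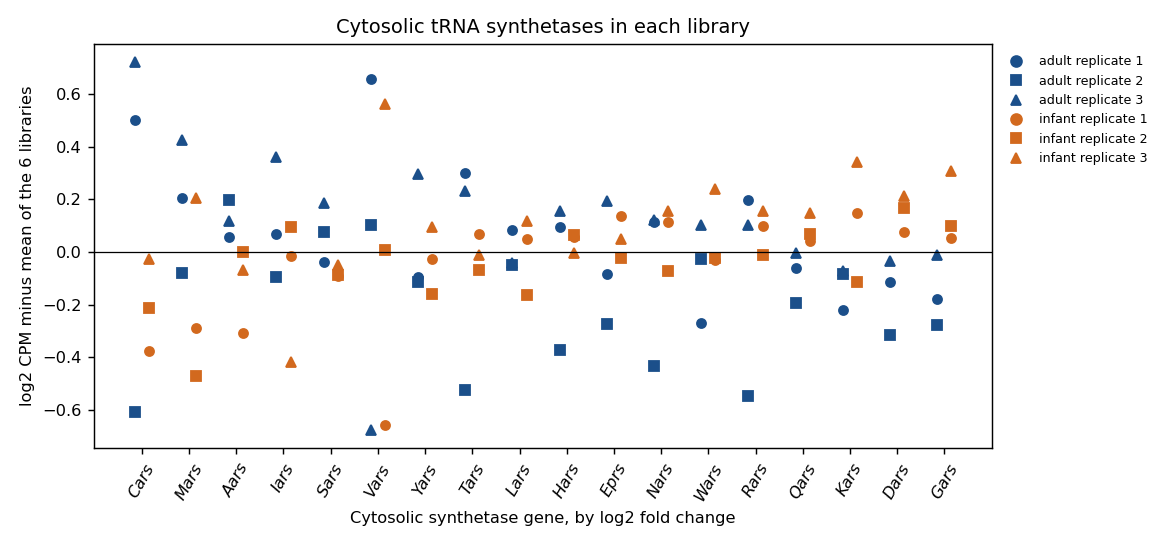
Level of each cytosolic synthetase in each library as log2 CPM minus the mean of the 6 libraries, genes ordered by fold change. Adult replicate 2 (blue squares) is the lowest library for 9 of the 18 genes, and the ages are mixed for most genes.

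Adult replicate 2 was the lowest of the 6 libraries for 9 of the 18 synthetases (50%), against 20.4% of all tested genes. Adult replicate 3 and infant replicate 3 were each the highest for 7. The median log2 fold change of the synthetases was −0.08 without adult replicate 2, −0.01 without infant replicate 3 and −0.10 without both. The sign of that median therefore rests on single libraries. Among all 34 tested members, adult replicate 2 was lowest for 14.

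Part of the synthetases sit together in a large cytosolic complex. The 8 members in that complex, a split made after the values were seen, had a median log2 fold change of 0.11 with 6 above 0. The 10 synthetases outside it had a median of −0.06 with 4 above 0. Levels per kb of exon, the scale on which genes can be compared, were highest for Gars (55.2 CPM per kb over all libraries), Sars (53.3), Dars (48.6) and Atf4 (47.3). Pck2, at 2.74 CPM per kb, was 32nd of the 42. Exon lengths are unions over all transcripts, so a gene with long rare transcripts is understated on this scale. Because strand was not marked, reads in exon bases shared with other genes cannot be assigned: these were 15.1% of Aars, 10.4% of Psph, 7.97% of Hars and 4.74% of Shmt1.

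Asns (chr6:7675169-7693254, minus strand), the asparagine synthetase and a standard target of ATF4, was below the filter. Its counts were 0, 5 and 0 in adult and 26, 13 and 9 in infant libraries. All infant libraries were above all adult libraries. An exact two-sided permutation test of the CPM gave p = 0.1, the smallest that 3 against 3 allows. The 5 counts of adult replicate 2 are 1.83 per kb of exon, and the density of that library over genes below the filter was 1.85 per kb. In infant libraries Asns had 9.51, 4.75 and 3.29 counts per kb. The infant mean of 3.59 CPM was 10.5-fold the level of 3 counts in adult replicates 1 and 3 together (0.341 CPM), which covers counting error only. This ratio leaves out adult replicate 2 and the counting error of the infant libraries, so it is not a lower bound. Over all adult libraries the mean was 0.474 CPM. With no filter the edgeR adjusted p was 0.303, and Asns was not called. Asns also passed the filter in 4 of the fits that left out a library. It was called without adult replicate 2 (edgeR adjusted p = 0.0142) and was not without adult replicate 1 (0.359), adult replicate 3 (0.317) or infant replicate 3 (0.213).

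Gpt2, the mitochondrial alanine aminotransferase, had 12, 40 and 1 counts in adult and 2, 5 and 3 in infant libraries. Pycr1, the last step of proline synthesis, had 0, 9 and 4 counts in adult and 11, 9 and 1 in infant libraries. Both overlapped between the ages. Cth, which makes cysteine from cystathionine, had 0, 5 and 2 counts in adult libraries and none in infant libraries. Vldlr, a lipoprotein receptor, had 35 counts in adult replicate 2, 3.48 per kb, and 0 to 2 in each of the other 5 libraries. Chac1, which degrades glutathione, had 2 counts in adult replicate 2 and 0 elsewhere. Atf5, a factor related to ATF4, had 1, 1 and 0 counts in adult and 3, 1 and 0 in infant libraries, and Cebpb had 0 in all 6. A level of 3 counts, the floor used here, is 0.628 to 0.852 CPM in these libraries. Lower levels cannot be read reliably at this depth.

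**Figure D4:**
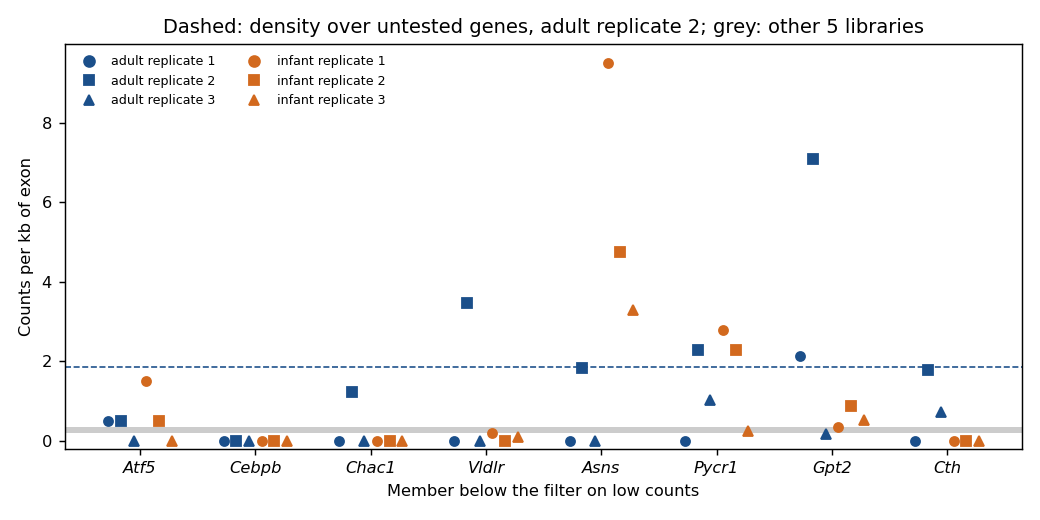
Counts per kb of exon in each library for the 8 members below the filter on low counts. The dashed line is the density over genes below the filter in adult replicate 2 (1.85 counts per kb), and the grey band that of the other 5 libraries (0.186 to 0.349); infant Asns lies at 3.29 to 9.51.

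The genes around the ATF4 program were read from lists that the members do not include. Upstream, none of the 15 eIF2 kinases, eIF2 and eIF2B subunits and their regulators passed (edgeR), with a median log2 fold change of 0.03. The smallest p values among them belonged to Eif2b3, a subunit of the exchange factor eIF2B (0.41 ± 0.18, adjusted p = 0.264, edgeR), and Ppp1r15b, the constitutive eIF2 phosphatase subunit (−0.15 ± 0.12, adjusted p = 0.588, edgeR). Of 22 other ATF4 targets 13 were tested and none passed, with a median of −0.06. Slc38a2, an amino acid transporter, had 145, 121 and 121 CPM in adult and 109, 86.1 and 83.8 CPM in infant libraries, a log2 fold change of −0.47 ± 0.14 (edgeR adjusted p = 0.0798, DESeq2 adjusted p = 0.0450). Eif4ebp1, a repressor of cap-dependent translation, had −1.52 ± 0.50 (edgeR adjusted p = 0.125, and 0.0416 without infant replicate 3). Neither overlapped between the ages.

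Of the 17 mitochondrial synthetases, all tested, Lars2 fell and none rose, and the median was −0.01. Lars2, for leucine, had 266, 336 and 212 CPM in adult and 144, 167 and 196 CPM in infant libraries, with no overlap (−0.68 ± 0.16, edgeR adjusted p = 0.0277). It was called in 2 of the 6 fits that left out a library, with adjusted p values of 0.0161 to 0.166 over the 6 (edgeR), and lost without adult replicate 1, adult replicate 2, infant replicate 1 or infant replicate 2. With the replicate number as a block its edgeR adjusted p was 0.0590. Of the 5 further cytosolic synthetase subunits and scaffold proteins none passed. Eef1e1, a scaffold protein, had −0.36 ± 0.18 (edgeR adjusted p = 0.345) and Farsb, a phenylalanyl synthetase subunit, had 0.19 ± 0.14 (edgeR adjusted p = 0.533).

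Around Pck2, none of the 8 tested genes of phosphoenolpyruvate and oxaloacetate metabolism, of 10 listed, passed, and their median was 0.02. Pkm, pyruvate kinase, which consumes phosphoenolpyruvate, had 513, 431 and 525 CPM in adult and 594, 602 and 694 CPM in infant libraries (0.36 ± 0.11, edgeR adjusted p = 0.0878). Pcx, pyruvate carboxylase, which makes the oxaloacetate that Pck2 uses, had 3.88, 19 and 2.99 CPM in adult and 3.56, 0.726 and 4.83 CPM in infant libraries. Its log2 fold change was −1.47 ± 0.73 (edgeR adjusted p = 0.327) with all libraries and −0.17 (0.931) without adult replicate 2. Pkm did not overlap between the ages, and it passed with library totals (edgeR adjusted p = 0.0290) and with DESeq2 (0.0276).

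Of 16 other one-carbon genes 12 were tested and Gcsh rose. Gcsh, a carrier protein of the glycine cleavage system, had 17.2, 19.3 and 17.5 CPM in adult and 36.6, 25.2 and 36.2 CPM in infant libraries (0.86 ± 0.22, edgeR adjusted p = 0.0455). It was called in none of the 6 fits that left out a library (adjusted p 0.0531 to 0.166, edgeR).

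In the list of 17 genes of the ATF6 and XBP1 arms of the endoplasmic reticulum stress response, all tested, Atf6 rose and none fell. Atf6, the membrane-bound sensor and transcription factor of its arm, had 18.2, 11.1 and 6.84 CPM in adult and 42.1, 37.0 and 36.7 CPM in infant libraries. Every infant library was above every adult library, at means of 38.6 ± 3.02 against 12.0 ± 5.73 CPM (SD, n = 3 each). The rise was 3.22-fold (log2 fold change 1.69 ± 0.29, edgeR adjusted p = 0.00436), and it passed in each of the 6 fits that left out a library, at adjusted p values up to 0.0378 (edgeR). The median of the list was 0.02.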

How the data were processed

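Polyadenylated RNA of 1000 sorted cells per library was amplified and sequenced in paired reads of 25 bases, per the labels' protocols. The protocol marks no strand and no molecules, so counts include PCR copies and overlapping genes cannot be separated. The submitters' processing notes name the aligner STAR 2.5.4, the counter featureCounts and the build mm10, and the annotation release and counting settings are not stated in them. In the deposited table the authors give raw counts by gene symbol, with no normalization.

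The test was the quasi-likelihood F test of edgeR 4.0.16 (R 4.3.3), with no covariate, over all 6 libraries after filterByExpr (minimum count 10, minimum total 15), with TMM factors and Benjamini-Hochberg adjustment over 11681 genes, called at 0.05. Fold changes are infant over adult. SEs were obtained from the fold change and its F statistic (absolute value over root F), and 95% intervals are unadjusted. Levels in CPM are relative to the tested-gene total after TMM scaling. Exon lengths and positions came from GENCODE M21, which held 93.1% of the symbols. The fit was tested on counts simulated from its own means and spreads, with no library made to differ as adult replicate 2 did. That simulation therefore says nothing about calls that turn on adult replicate 2. P-values measure the spread between libraries, each of a different mouse. Differences between mice and between library preparations cannot be told apart.

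Alternatives were the tests of DESeq2 1.42.0 and limma-voom (limma 3.58.1), scaling by library totals, by upper quartiles or by DESeq2 size factors, no filter or a stricter one (a mean of 20 and at least 10 counts in 3 libraries), the replicate number as a block, each library left out in turn, and adult replicate 2 and infant replicate 3 left out together. The same alternatives for the named pathway genes were added after seeing the data. Members and lists were chosen with earlier results of these data known. Values per library are given for Pck2, called members, the member of smallest p in each direction and of highest CPM in each role group, and further members chosen after their values were seen. In pathway lists the genes called, or otherwise the 2 of smallest p, are named.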

Additional observations from a re-analysis of the deposited data

How the results depend on the processing

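The number of genes called was 425 in all, and 139 to 488 as each library was left out; genes higher in infant cells were 55 to 217 and genes lower 84 to 271. DESeq2 called 268 genes higher in infant cells. Of the members, 3 were called with all libraries, 1 to 3 as each library was left out, and 5 (Pck2, Asns, Shmt1, Cars and Mars) with adult replicate 2 and infant replicate 3 both left out. Members called higher were 0 to 1 as each library was left out and 2 with both left out, and members called lower were 1 to 2 (2 without adult replicate 2) and 3 with both left out. With limma-voom 1 member was called higher. Members whose ages did not overlap were 11 to 17 with each library left out (31.4% to 48.6% of those tested, against 30.4% to 34.8% of all tested genes) and 21 with both left out, where 46.3% of all tested genes did not overlap; fewer libraries per group make this count larger by construction. Other causes of these shifts were not tested.

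As to pairing, same-numbered libraries did not deviate together (correlations of −0.0471, −0.0108 and −0.0919). In the main fit the numbers were taken only as names of libraries. With 3 libraries per group, these correlations cannot show whether same-numbered libraries were handled together. The fit with the replicate number as a block called 326 genes and 2 members, 1 of them higher in infant cells, Psat1.

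Over 510 fold changes of members under these alternatives, 467 kept their direction and side of the threshold. The 28 that changed sign belonged to 13 members that had not passed. Leaving out single libraries gave ranges of −0.043 to 0.51 for Cebpg, −0.85 to 0.091 for Sesn2, −0.11 to 0.077 for Phgdh, −0.070 to 0.091 for Aldh18a1, −0.023 to 0.27 for Got1, −0.0049 to 0.23 for Eprs, −0.085 to 0.15 for Hars, −0.052 to 0.085 for Lars, −0.048 to 0.20 for Nars, −0.067 to 0.26 for Rars, −0.27 to 0.089 for Tars, −0.42 to 0.30 for Vars and −0.14 to 0.075 for Yars. With adult replicate 2 and infant replicate 3 both left out, Phgdh was at −0.22, Aldh18a1 at −0.075, Eprs at −0.0030, Hars at −0.066, Lars at −0.075, Nars at −0.094, Rars at −0.11 and the pathway gene Farsb at −0.0065; the cause was not tested. With 3 mice per group and a biological coefficient of variation of 0.184, small changes can be missed. The 8 members below the filter on low counts (minimum count 10) were not tested in the main fit. Levels under the floor of 3 counts per library cannot be read reliably.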
